A study of Mus musculus with 8 samples.

Results

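The hypoxia-inducible genes are a set of 10 named genes, Hif1a, Adm, Vegfa, P4ha1, P4ha2, Egln3, Bnip3, Slc2a1, Ddit4 and Pdk1, out of 22180 genes with a row of their own in the expression table. They were found by gene symbol in the platform's annotation, and where a gene had several rows the row with the highest mean over the 8 arrays was kept. All 10 passed the filter on dim genes, which left 15380 genes to test. Their levels were compared between 4 arrays of p16 knockout (p16-/-) and 4 arrays of p16 wild type (p16+/+) primary mouse hepatocytes, the main metabolic cells of the liver, taken from littermates. p16 is a product of Cdkn2a that restrains the kinases driving entry into the cell cycle. Cells of both groups were freed by collagenase perfusion, plated with insulin (100 nM), dexamethasone (25 nM) and 10% serum, switched after 16 h to a low-glucose medium (1 mM glucose, 0.1% albumin) in which they stayed 8 h, and harvested at 24 h. The labels name no change of oxygen, no strain and no age, and do not say which part of the gene the knockout lacks.

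Cells respond to low oxygen through hypoxia-inducible factors, transcription factors made of an oxygen-sensitive alpha subunit, such as the product of Hif1a, and a stable partner encoded by Arnt. When oxygen is present, prolyl hydroxylases of the EGLN family mark the alpha subunit for destruction by the VHL ubiquitin ligase, so its activity is set largely after the mRNA is made. When the subunit escapes, it raises genes for glucose uptake and glycolysis, blood vessel growth, collagen modification, removal of mitochondria and feedback on the sensor itself. Several of these genes also answer to nutrient and stress signals, Ddit4 among them.

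Hypoxia-inducible factors bind a short core in DNA, written here as ACGTG or GCGTG. It was searched on both strands in the 250 bases before each RefSeq start (build GRCm38.p6). All 10 genes matched the RefSeq promoter table by symbol, with 12 starts, since Vegfa and Pdk1 have several. The windows of the 5 genes that passed the test between the genotypes are printed 5′ to 3′ on the gene's strand, for Pdk1 the start lying farther upstream, with every match in capitals. A match on the opposite strand reads CACGT or CACGC, and CACGTG holds overlapping matches of both strands.
Adm, chr7:110627407-110627656, plus strand: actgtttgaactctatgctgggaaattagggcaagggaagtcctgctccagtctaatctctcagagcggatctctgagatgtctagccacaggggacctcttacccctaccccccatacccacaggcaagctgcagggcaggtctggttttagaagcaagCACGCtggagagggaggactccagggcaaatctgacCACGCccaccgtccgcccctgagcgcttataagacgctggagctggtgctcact
P4ha2, chr11:54100674-54100923, plus strand: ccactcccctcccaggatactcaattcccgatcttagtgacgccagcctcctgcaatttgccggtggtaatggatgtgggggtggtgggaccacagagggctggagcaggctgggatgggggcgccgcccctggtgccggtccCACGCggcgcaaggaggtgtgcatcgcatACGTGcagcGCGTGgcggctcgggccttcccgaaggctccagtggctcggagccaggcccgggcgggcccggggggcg
Bnip3, chr7:138909507-138909756, minus strand: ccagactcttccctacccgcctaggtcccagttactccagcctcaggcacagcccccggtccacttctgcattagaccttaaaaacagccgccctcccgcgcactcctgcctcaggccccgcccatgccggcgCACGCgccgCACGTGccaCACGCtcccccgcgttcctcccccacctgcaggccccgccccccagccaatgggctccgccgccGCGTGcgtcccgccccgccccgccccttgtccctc
Slc2a1, chr4:119108495-119108744, plus strand: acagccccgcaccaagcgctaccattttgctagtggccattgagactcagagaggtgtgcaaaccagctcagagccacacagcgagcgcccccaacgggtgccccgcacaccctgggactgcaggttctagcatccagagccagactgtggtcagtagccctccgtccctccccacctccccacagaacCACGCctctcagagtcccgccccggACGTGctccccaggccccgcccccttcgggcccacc
Pdk1, chr2:71872974-71873223, plus strand: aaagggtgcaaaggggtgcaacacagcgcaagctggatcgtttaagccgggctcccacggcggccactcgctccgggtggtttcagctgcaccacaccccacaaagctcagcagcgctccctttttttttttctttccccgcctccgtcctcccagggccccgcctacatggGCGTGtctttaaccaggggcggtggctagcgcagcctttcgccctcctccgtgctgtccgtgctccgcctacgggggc
At least 1 match was present in 10 of the 12 windows, against 38.6% of all 32851 windows in the table and 51.5% of the 14976 windows of genes tested here. ACGTG occurred in 8 of the 12 windows, against 16.6% of all windows and 20.5% of those of genes tested. GCGTG also occurred in 8, against 28.2% of all windows and 40.4% of those of genes tested. The Bnip3 window held 5 matches, the P4ha2 window 3, the Adm and Slc2a1 windows 2 each and the printed Pdk1 window 1. The window of the other Pdk1 start held 0. The genes that did not pass the test held matches too, 3 each for Hif1a and P4ha1, 2 for Ddit4 and 1 for Egln3, and of the Vegfa starts the farther upstream held 0 and the other 2. That other Vegfa window lies inside the span of the gene, as do those of Hif1a and the other Pdk1 start. The counts over the 12 windows include them. A match is a description of the letters in the window and not a sign of binding.

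Array medians ran from 3.76 to 3.88 (log2). Knockout replicate 4 stood apart from the other arrays on the second principal component, at -25.2 against -8.91 to 14.6. Cdkn2a had 1 row, with a change of 0.0040 (95% interval -0.37 to 0.38). Where its probes lie is not given, so this row checks nothing. The hepatocyte gene Alb was at 13.56 to 13.59 in knockout and 13.50 to 13.57 in wild type cells, in a table whose highest value is 13.65. Of 18 tested hepatocyte markers 11 were higher in the knockout and 0 lower, with list means of 10.28 to 10.41 in knockout and 9.58 to 9.79 in wild type arrays. Of 18 sinusoidal endothelial markers 15 were lower and 0 higher (list means 4.54 to 4.78 in knockout and 5.57 to 5.72 in wild type arrays), and of 15 Kupffer cell and macrophage markers 12 were lower and 1, Cd68, was higher (4.46 to 4.52 in knockout and 5.22 to 5.35 in wild type arrays). Of 14 stellate cell and fibroblast markers 4 were lower and 1, Reln, higher. In such bulk samples fewer cells of a type and less RNA per cell cannot be told apart.

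Of the 10 hypoxia-inducible genes 5 were higher in p16 knockout hepatocytes, 0 were lower and 5 did not pass the test (limma, adjusted p under 0.05). Over all genes tested 7.02% were higher in the knockout and 6.76% lower. The 5 were Adm, P4ha2, Bnip3, Slc2a1 and Pdk1. The change was positive for 9 of the 10, with a median of 0.36 on the log2 scale against -0.02 over all genes tested. It was negative for the kept row of Hif1a. Groups did not overlap for 6 of the 10, the 5 called genes and Vegfa, all with the knockout higher, against 9.13% of all genes tested. On the same arrays the hepatocyte list mean was higher by 0.68 and the endothelial list mean lower by 0.98. Their part in the result was not tested. Leaving out a single array moved the count of called members between 2 and 8: it was 2 without knockout replicate 1 or 3 or wild type replicate 1 or 2, 3 without knockout replicate 2, and 8 without wild type replicate 4.

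**Figure D1:**
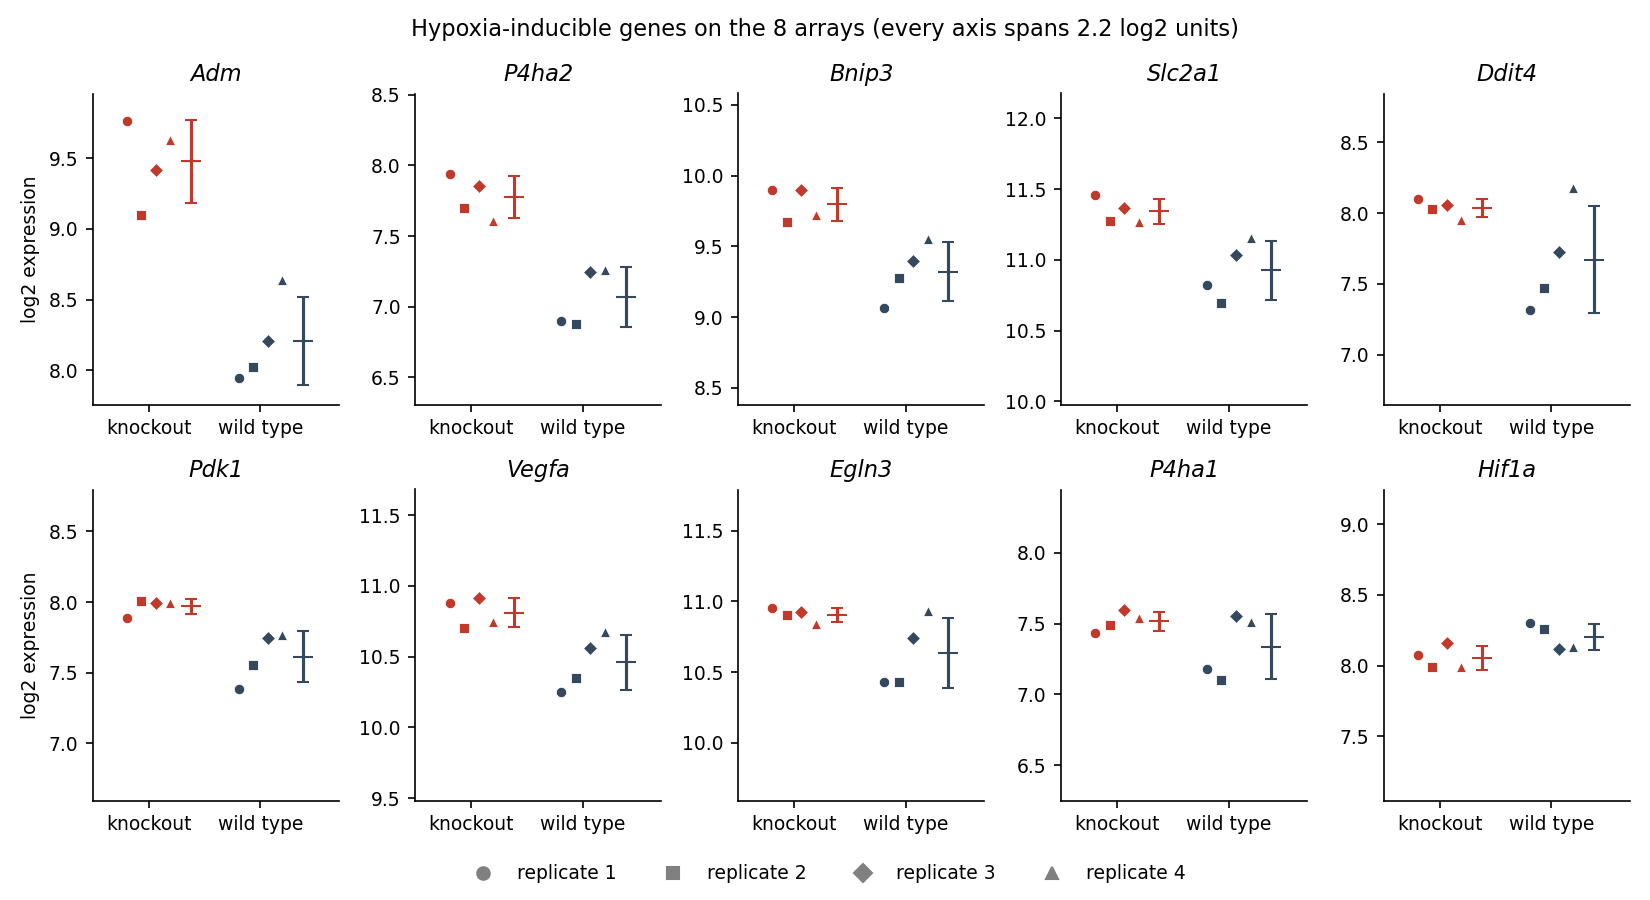
Log2 expression of the 10 hypoxia-inducible genes, with the 4 knockout arrays in red on the left and the 4 wild type arrays in dark blue on the right of each panel; marker shapes give the replicate number and the bars the mean ± SD. The red and blue points are apart for Adm, P4ha2, Bnip3, Slc2a1, Pdk1 and Vegfa, and overlap for Ddit4, Egln3, P4ha1 and Hif1a.

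Hif1a, which encodes the oxygen-sensitive alpha subunit itself, was at 8.08, 7.99, 8.16 and 7.99 in knockout arrays, against 8.30, 8.26, 8.12 and 8.13 in wild type arrays. Knockout replicate 3 lay among the wild type arrays and the other 3 knockout arrays lay below all of them. The mean was 8.05 ± 0.08 in knockout and 8.21 ± 0.09 in wild type cells (SD, n = 4 each), a change of -0.15 with a 95% interval of -0.34 to 0.04 that did not pass the test (limma, adjusted p = 0.317). For this row that interval does not reach the changes measured for P4ha2 (0.70) and Adm (1.27), and differences between genes were not tested.

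A second row that carries the symbol Hif1a alone ran the other way. This row, 17281911, was at 6.40, 6.17, 6.61 and 6.24 in knockout arrays, against 5.50, 5.77, 5.87 and 5.60 in wild type arrays. Every knockout array lay above every wild type array. When each row was tested on its own, a setting chosen after seeing the data, its change was 0.67 (SE 0.12) with an adjusted p of 0.00405, while the kept row, 17276328, stayed at -0.15 (limma, adjusted p = 0.324). Which transcripts or strand each row's probes measure is not given, so the direction for Hif1a rests on the row chosen. Row 17281911 is numbered between the rows of Egln3 (17281084) and Pgf (17282664). Egln3 lies on the minus strand and Hif1a on the plus strand, so row 17281911 may not measure the Hif1a mRNA. A further 1 row that names Hif1a together with another gene was not used. Slc2a1 and Pdk1 also have a second row. That of Slc2a1 had a change of 0.22 (SE 0.11, limma adjusted p = 0.219), in the direction of the kept row, but its strand is not given either. That of Pdk1 averaged 2.29 ± 0.39 in knockout and 2.10 ± 0.30 in wild type cells (SD, n = 4 each), under the filter value of 3.32, and was not tested.

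**Figure D2:**
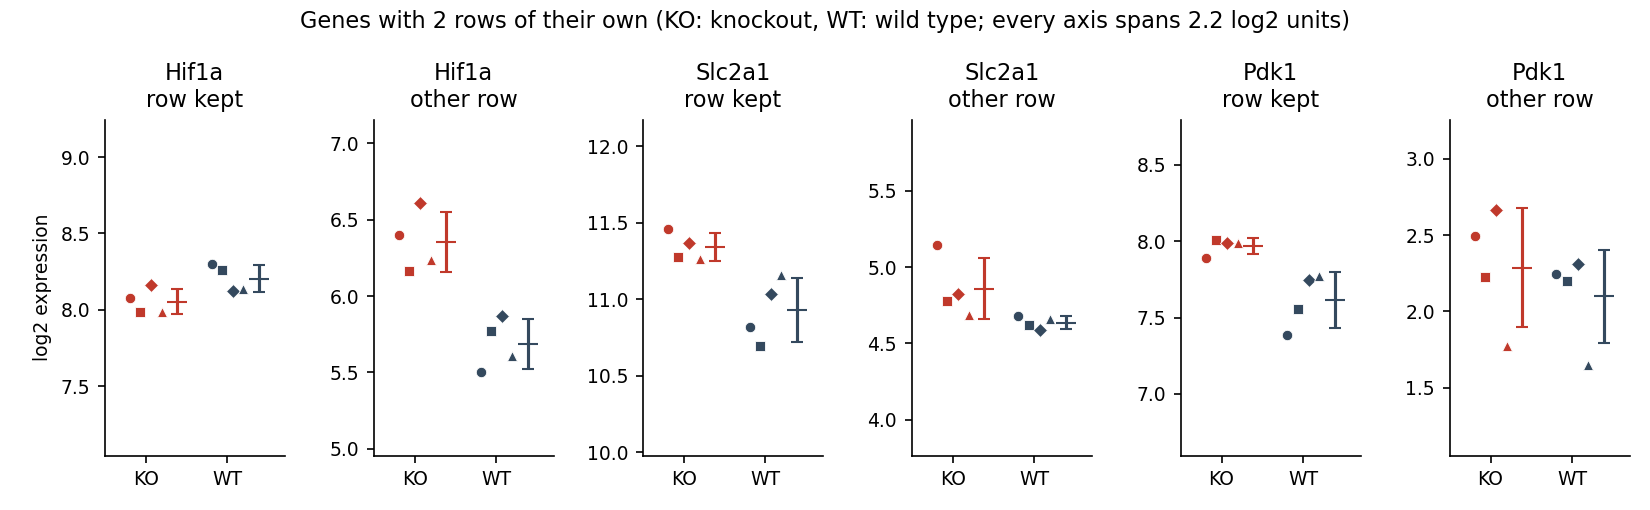
Log2 expression of both rows of Hif1a, Slc2a1 and Pdk1, knockout arrays in red left of wild type arrays in dark blue; marker shapes give replicate 1 (circle), 2 (square), 3 (diamond) and 4 (triangle), and bars the mean ± SD. The kept Hif1a row is lower in 3 of 4 knockout arrays than in any wild type array, while the other Hif1a row is higher in all 4.

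Egln3 encodes a prolyl hydroxylase that marks the alpha subunit for destruction and is itself induced by hypoxia. It was at 10.96, 10.90, 10.92 and 10.84 in knockout arrays, against 10.43, 10.43, 10.74 and 10.94 in wild type arrays. The knockout arrays lay close together, and wild type replicate 4 lay among them while the other 3 wild type arrays lay below. Its change of 0.27 (95% interval 0.01 to 0.54) did not pass the test (limma, adjusted p = 0.172). Without wild type replicate 4 it was 0.37 and passed at an adjusted p of 0.0496.

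Adm, which encodes the vasodilator peptide adrenomedullin, had the largest change of the 10. It was at 9.77, 9.10, 9.42 and 9.63 in knockout arrays, against 7.95, 8.02, 8.21 and 8.64 in wild type arrays. Even the lowest knockout array lay above the highest wild type array. Adm averaged 9.48 ± 0.29 in knockout and 8.21 ± 0.31 in wild type cells (SD, n = 4 each) and was 2.41-fold higher in the knockout (log2 change 1.27, SE 0.17, limma adjusted p = 6.49e-04), the 79th largest rise among all genes tested. By the root mean square difference over the 8 arrays, after each gene was centred on its own mean, the nearest patterns among 14033 named genes were those of Dio3 (0.173), which encodes a deiodinase that inactivates thyroid hormone, Urah (0.197), a gene of urate breakdown, and Akr1d1 (0.199), a reductase gene of bile acid synthesis. The median difference over all those genes was 0.717. Dio3 was at 5.23, 4.75, 5.40 and 5.39 in knockout arrays, against 3.76, 3.89, 4.26 and 4.50 in wild type arrays. Like Adm, Dio3 was lowest among the knockout arrays in replicate 2 and highest among the wild type arrays in replicate 4. The search itself selects for such a likeness.

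Vegfa, the main growth factor for blood vessels, was at 10.88, 10.70, 10.91 and 10.75 in knockout arrays, against 10.25, 10.35, 10.56 and 10.67 in wild type arrays. The groups were apart, but only narrowly between knockout replicate 2 and wild type replicate 4. Vegfa averaged 10.81 ± 0.10 in knockout and 10.46 ± 0.19 in wild type cells (SD, n = 4 each). Its change of 0.35 (SE 0.11) did not pass the threshold (limma, adjusted p = 0.0577). It passed under 6 of 19 alternatives, with adjusted p-values down to 0.00992 with an intensity trend in the variance.

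P4ha1 and P4ha2 encode alternative catalytic subunits of the prolyl hydroxylase that stabilises collagen, and P4ha2 alone of the pair passed the test. P4ha2 was at 7.94, 7.70, 7.86 and 7.61 in knockout arrays, against 6.90, 6.88, 7.24 and 7.26 in wild type arrays, with a gap between the groups. It rose 1.63-fold (log2 change 0.70, SE 0.12, limma adjusted p = 0.00285). P4ha1 was at 7.44, 7.49, 7.60 and 7.54 in knockout arrays, against 7.18, 7.10, 7.55 and 7.51 in wild type arrays. Wild type replicates 3 and 4 lay among the knockout arrays and wild type replicates 1 and 2 below them. Its change of 0.18 (95% interval -0.08 to 0.43) did not pass the test (limma, adjusted p = 0.370). The difference between the changes of the 2 genes was not tested.

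Slc2a1 encodes the glucose transporter GLUT1, which supplies glucose to many cell types, while hepatocytes rely mainly on GLUT2. It was at 11.46, 11.28, 11.37 and 11.27 in knockout arrays, against 10.82, 10.69, 11.04 and 11.16 in wild type arrays. The groups did not overlap, and wild type replicate 4 came nearest to the knockout. Slc2a1 rose 1.33-fold (log2 change 0.41, SE 0.11, limma adjusted p = 0.0317). The call ended without knockout replicate 1, 2 or 3 or wild type replicate 1 or 2 (adjusted p = 0.0910, 0.0602, 0.0680, 0.0940 and 0.0844), with no filter on dim genes (0.0590) and with the mean of its rows (0.0582).

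Pdk1 encodes a kinase that inhibits pyruvate dehydrogenase and so limits the conversion of pyruvate to acetyl-CoA. It was at 7.89, 8.01, 7.99 and 7.99 in knockout arrays, against 7.38, 7.56, 7.75 and 7.77 in wild type arrays. The knockout arrays were tightly grouped above all wild type arrays. Pdk1 rose 1.28-fold (log2 change 0.35, SE 0.10, limma adjusted p = 0.0415). Its call ended without any single knockout replicate (adjusted p = 0.0667, 0.100, 0.0846 and 0.0656 for replicates 1 to 4) and without wild type replicate 1 (0.116) or 2 (0.0993), with no filter on dim genes (0.0767) and with the mean of its rows (0.149).

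Bnip3 encodes a mitochondrial outer membrane protein that takes part in mitophagy, the removal of mitochondria. It was at 9.90, 9.67, 9.90 and 9.72 in knockout arrays, against 9.06, 9.27, 9.40 and 9.55 in wild type arrays. All knockout arrays lay above all wild type arrays. Bnip3 rose 1.39-fold (log2 change 0.47, SE 0.12, limma adjusted p = 0.0193). Without knockout replicate 1 or 3 or wild type replicate 1 or 2 the call ended (adjusted p = 0.0586, 0.0513, 0.0565 and 0.0521).

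Ddit4, which encodes the mTORC1 inhibitor REDD1, was at 8.10, 8.03, 8.05 and 7.95 in knockout arrays, against 7.32, 7.47, 7.72 and 8.18 in wild type arrays. Wild type replicate 4 lay above every knockout array and the other 3 wild type arrays below every knockout array. The change of 0.36 (SE 0.16) did not pass the test (limma, adjusted p = 0.170). Leaving out wild type replicate 4 gave a change of 0.53 and an adjusted p of 0.0131.

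**Figure D3:**
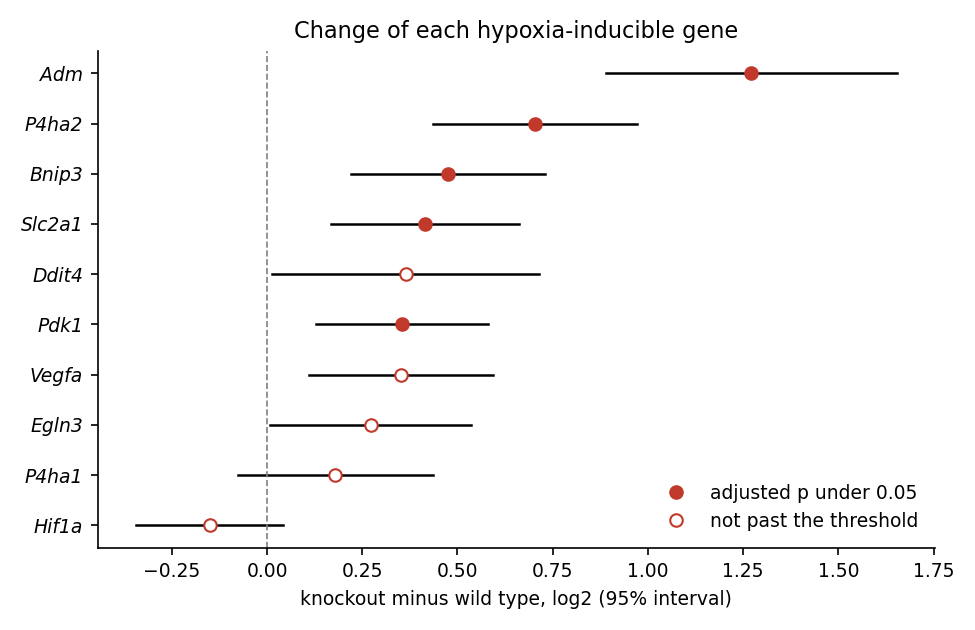
Change of each of the 10 hypoxia-inducible genes, given in log2 units as knockout minus wild type, as limma's estimate (circle) with its 95% interval (line); filled circles passed at an adjusted p under 0.05. Adm and P4ha2 lie farthest to the right at 1.27 and 0.70, most others lie between 0.18 and 0.47, and Hif1a lies left of 0 with an interval that crosses it.

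Among arrays of the same genotype the 10 genes shared a pattern. For 9 of them wild type replicates 1 and 2 both lay below wild type replicates 3 and 4. The same order held in 18.3% of all genes tested and 38.4% of 86 further genes of the hypoxia pathway. For the kept row of Hif1a both lay above, as in 12.1% of all genes tested. The other Hif1a row, at 5.50, 5.77, 5.87 and 5.60 in wild type replicates 1 to 4, showed neither order. The median difference of the 10 genes from their own wild type means was -0.21, -0.19, 0.10 and 0.22 in wild type replicates 1 to 4, and 0.43, 0.35, 0.41 and 0.31 in knockout replicates 1 to 4. Wild type replicate 4 was the highest wild type array for 8 of the 10 and thus the nearest to the knockout. Hepatocyte list means in the same arrays were 9.68, 9.58, 9.68 and 9.79 in wild type replicates 1 to 4. The SD was smaller among the knockout arrays than among the wild type arrays for all 10 genes, with a median SD of 0.09 in knockout and 0.21 in wild type arrays. The knockout SD was the smaller for 55.8% of the 86 further pathway genes and for 44.2% of all genes tested. Over all genes tested the median SDs were 0.16 in knockout and 0.14 in wild type arrays. These counts describe genes that share the same 8 arrays, and the pattern was noticed after the values were seen.

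**Figure D4:**
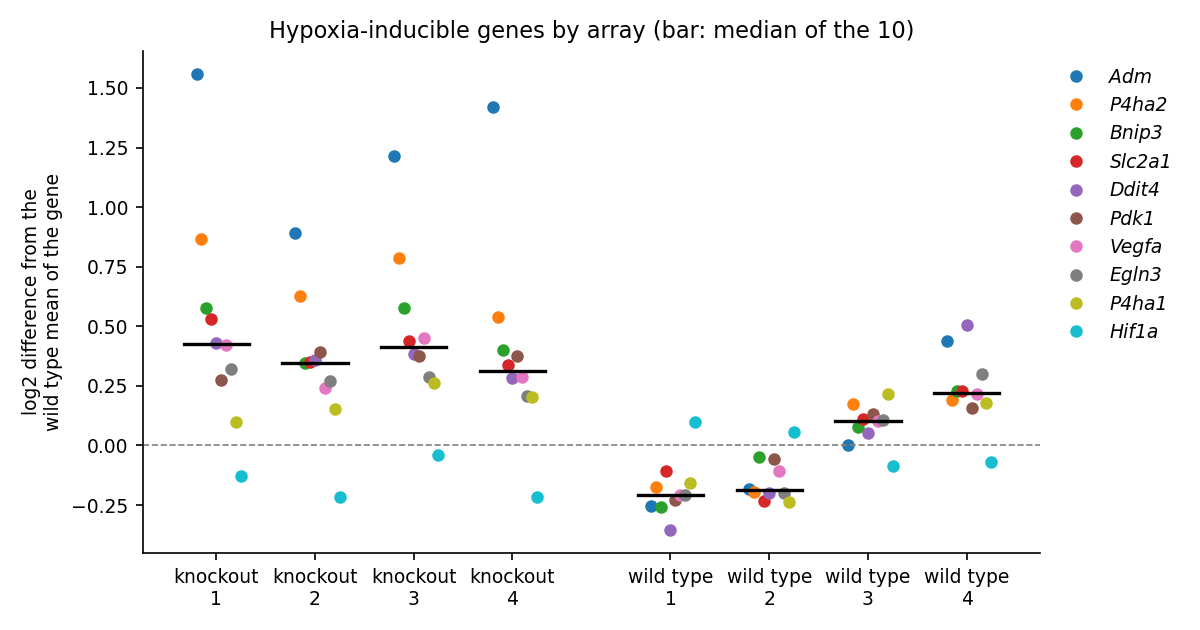
Log2 difference of each hypoxia-inducible gene from its own wild type mean (points, coloured by gene) on each array, knockout arrays on the left and wild type arrays on the right; the black bar is the median of the 10 genes. The bars lie at 0.31 to 0.43 in the knockout arrays and range from -0.21 to 0.22 in the wild type arrays. The kept row of Hif1a runs opposite to the other genes.

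Genes around these 10 were taken from a list of 99 further genes of the hypoxia pathway, sorted by role, of which 86 could be tested. The role names are loose headings, and counts by role include genes of other functions, such as Gys1, Ccng2 and Errfi1. Of these 22 were higher in the knockout, 11 lower and 53 did not pass the test (limma, adjusted p under 0.05), which is 25.6% higher and 12.8% lower, against 7.02% and 6.76% of all genes tested. Their median change was 0.13, against -0.02 over all genes tested. List means in wild type arrays were 8.74 for the 10 genes, 7.48 for the 86 further genes and 5.84 over all genes tested. The shares over all genes thus include many dimmer genes. With the 60th percentile filter 1218 of 10903 genes tested were higher and 1238 lower, and 26 further pathway genes were higher and 12 lower. By count, falls outnumbered rises among angiogenic and vasoactive genes and among genes of pH, iron and redox balance.

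Among 15 tested genes of oxygen sensing and the factor's subunits 4 rose, 1 fell and 10 did not pass. Epas1, which encodes the HIF2 alpha subunit, was at 7.68, 7.85, 7.74 and 7.25 in knockout arrays, against 6.91, 6.97, 7.22 and 6.96 in wild type arrays. The groups were apart, with knockout replicate 4 and wild type replicate 3 nearest to each other. Epas1 rose 1.53-fold (log2 change 0.61, SE 0.13, limma adjusted p = 0.0103). Hif3a, whose product can dampen the response, rose by 0.51 (SE 0.11), the partner subunit Arnt by 0.38 (SE 0.10) and Egln1, the main oxygen-sensing hydroxylase, by 0.46 (SE 0.11). Cul2, the scaffold of the VHL ubiquitin ligase, fell by 0.54 (SE 0.10, limma adjusted p = 0.00341). The changes of Vhl (0.34, limma adjusted p = 0.0721), Egln2 (0.15, 0.354) and Hif1an (-0.15, 0.393), which encodes a hydroxylase that blocks coactivator binding, did not pass. The Arnt call ended without knockout replicate 1 or 3 or wild type replicate 2 or 4 (adjusted p = 0.0630, 0.0584, 0.0611 and 0.0521) and the Egln1 call without knockout replicate 1 or wild type replicate 1 or 2 (0.0550, 0.0575 and 0.0515). The hepatocyte list mean was higher by 0.68 and the endothelial list mean lower by 0.98 on these arrays too, and their part was not tested.

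Of 17 tested genes of glucose uptake and glycolysis 6 rose, 0 fell and 11 did not pass. Gys1, a glycogen synthase gene, rose 1.75-fold (log2 change 0.81, SE 0.14, limma adjusted p = 0.00335), and Pfkfb3, whose enzyme makes the activator of phosphofructokinase, rose by 0.82 (SE 0.16). Pfkfb3 was at 7.44, 6.98, 7.30 and 7.00 in knockout arrays, against 5.97, 6.31, 6.53 and 6.65 in wild type arrays. In wild type cells replicates 1 and 2 lay below 3 and 4, as for 9 of the 10 genes. Hk1 (0.57), Pfkl (0.53), Pfkp (0.51) and the lactate exporter Slc16a3 (0.63), named after their values were seen, also rose. The changes of the 11 genes that did not pass ran from -0.13 for Pkm to 0.21 for Pgam1, and Hk2 (0.14), Pfkfb4 (0.12), Aldoc (0.19), Pgk1 (0.14), Gapdh (0.02) and Ldha (0.08), named in the same way, were among them. On the same arrays the hepatocyte list mean was higher by 0.68, and its part was not tested.

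Of 13 tested genes listed as angiogenic and vasoactive, other than Adm and Vegfa, 5 were lower, 1 was higher and 7 did not pass the test. Angpt2, which encodes a ligand that loosens vessels, was at 4.60, 4.79, 4.82 and 4.13 in knockout arrays, against 6.18, 5.94, 6.19 and 5.99 in wild type arrays. All knockout arrays lay far below all wild type arrays. Angpt2 fell by 1.49 on the log2 scale (SE 0.15, limma adjusted p = 6.29e-05). Angptl4, an inhibitor of lipoprotein lipase that also answers to fasting signals, fell by 0.81 (SE 0.09), and the other falls, named after their values were seen, were those of Edn1 (-1.07), Vegfc (-0.73) and Plaur (-0.58). Ccng2, which encodes cyclin G2, rose by 0.77 (SE 0.12). Sinusoidal endothelial markers were lower on the same arrays, 15 of 18 tested, with list means of 4.54 to 4.78 in knockout and 5.57 to 5.72 in wild type arrays. Their part in the falls was not tested.

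Among genes of matrix and collagen modification, the role of P4ha1 and P4ha2, 4 of 10 were higher, 1 was lower and 5 did not pass. Lox, the lysyl oxidase that cross-links collagen, was at 7.36, 7.48, 7.34 and 6.89 in knockout arrays, against 5.74, 5.84, 6.13 and 6.03 in wild type arrays, with a wide gap between the groups. It rose 2.52-fold (log2 change 1.33, SE 0.14, limma adjusted p = 8.43e-05). Ccn2, a matricellular growth factor gene, rose by 0.49 (SE 0.10), a call that ended with the mean of its rows (0.29, adjusted p = 0.217), and the lysyl hydroxylase genes Plod1 (0.44) and Plod2 (0.62), named after their values were seen, rose as well. Anxa2 fell by 0.35 (SE 0.08), and its call ended without knockout replicate 2 or wild type replicate 1 (adjusted p = 0.0527 and 0.0600). On these arrays 4 of 14 stellate cell and fibroblast markers were lower and 1 was higher, with a list mean of 4.26 to 4.38 in knockout and 4.75 to 4.84 in wild type arrays, and their part was not tested.

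Among 11 genes of mitochondria, autophagy and survival 3 rose, 1 fell and 7 did not pass. Ndufa4l2, which encodes a mitochondrial protein known to be induced by HIF, was at 9.51, 9.49, 9.69 and 9.36 in knockout arrays, against 7.82, 8.54, 8.46 and 8.62 in wild type arrays. The groups were well apart, with wild type replicate 1 the lowest array. Ndufa4l2 rose 2.22-fold (log2 change 1.15, SE 0.16, limma adjusted p = 7.54e-04). Igfbp1, a secreted binding protein of hepatocytes that insulin represses, rose by 0.77 (SE 0.11), Higd1a (picked after seeing its value) rose by 0.36, and Igfbp3 fell by 0.53 (SE 0.09). Ndrg1 (0.09) and Mif (0.09), picked in the same way, were among the 7 that did not pass. Of 6 genes of pH, iron and redox balance 1 rose and 2 fell. The riser was the haem oxygenase gene Hmox1, by 1.02 (SE 0.15), and the falls were those of the iron transporter Slc11a2 (-0.63, SE 0.09) and the transferrin receptor Tfrc (-0.52, SE 0.11). Car9, widely used as a marker of hypoxia, averaged 3.86 ± 0.21 in knockout and 3.92 ± 0.14 in wild type cells (SD, n = 4 each), near the filter value of 3.32, and was named after its value was seen. Of 14 transcriptional and chromatin feedback genes 3 rose, namely the demethylase gene Kdm4b (0.39, SE 0.09), Errfi1 (0.44, SE 0.10) and Bhlhe41 (0.76, picked after seeing its value). Cited2 (-0.54, SE 0.11), whose product competes with the factor for its coactivators, was the 1 that fell. The other 10 did not pass, among them Kdm3a (0.17) and Bhlhe40 (0.18), also picked after seeing their values. The groups overlapped for Bhlhe41, with knockout replicate 4 at 4.51, below wild type replicates 3 and 4 at 4.60 and 4.53. On the arrays behind these 3 roles the hepatocyte list mean was higher by 0.68, the endothelial list mean lower by 0.98 and the Kupffer cell and macrophage list mean lower by 0.79, and their part was not tested.

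**Figure D5:**
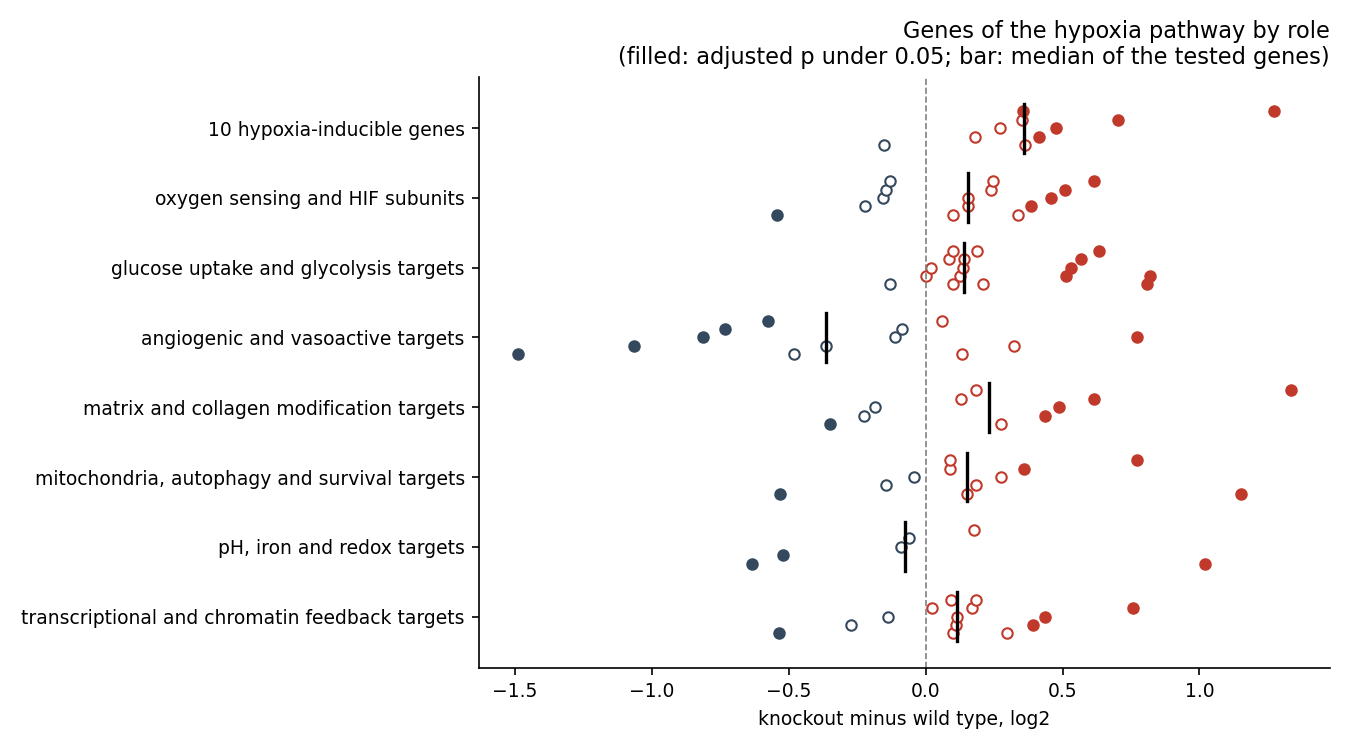
Change of the 10 hypoxia-inducible genes and of 86 further genes of the hypoxia pathway by role, in log2 units as knockout minus wild type; each circle is 1 gene, red above and dark blue below 0, filled where the adjusted p is under 0.05, and the black bar is the median of the genes tested in that role. The median is highest for the 10 genes, at 0.36, and lowest for the angiogenic and vasoactive genes, at -0.37.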

How the data were processed

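Total RNA of 8 hepatocyte samples was hybridised to Affymetrix gene arrays, 1 array per sample. RMA through oligo was run by the authors, per the submitters' processing notes, which name no version here. The deposited values are log2 expression, background corrected, forced to 1 distribution across arrays and summarised over probes, so shared shifts are removed and changes of dim genes compressed. Arrays have no read depth, and 4 arrays per group limit precision. Rows with 1 platform symbol (23521 of 41345) were named, and 1814 rows with several symbols and 16010 with none were not. Of the named rows 23328 matched a RefSeq gene identifier (GRCm38.p6). Per gene the row of highest mean was kept, and genes were tested if that mean exceeded the 40th percentile of all row means (3.32), which left 15380.

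Knockout minus wild type was tested with R 4.3.3 and its package limma 3.58.1 (linear model with empirical Bayes; 6 residual, 5.05 prior degrees of freedom), and two-sided p-values were Benjamini-Hochberg adjusted over the 15380 genes; SE means the moderated standard error, and intervals are 95%. The labels call the replicates biological but do not say whether they came from separate animals. The p-values therefore reflect only how these samples spread, which may not be the spread between animals. The members and lists were chosen with earlier results of these data known. Genes named beside the 10 are the 2 of smallest p in each direction per role, 6 sensor genes, the 3 nearest patterns to the member with the largest rise (no called member fell, so no second search was made), and others marked in the text as picked after seeing values. The fit was tested on simulated data of the 15380 genes, with independent normal noise and only a small share of genes changed. There it called 44% of changes of 0.5, 87% of changes of 1 and 98% of changes of 2. The rates depend on that share, so they need not hold for the data. Alternatives were other filters, row rules, normalizations, variance models, thresholds, a replicate block and leaving out each array. Samples with the same replicate number had deviations correlated at 0.06, 0.02, 0.26 and 0.21 for numbers 1 to 4. Samples with different numbers had correlations of -0.29 to 0.15. The labels do not say whether a number pairs samples, so the main fit did not pair them, and the replicate block did. Of 99 further pathway genes 11 had no row of their own and 2 lay under the filter; these 13 were not analysed here. Python was 3.11.15.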

Additional observations from a re-analysis of the deposited data

Results flagged for a closer look

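Among 70 groups of 4 arrays checked (the 10 hypoxia-inducible genes and 25 named pathway genes in each genotype), 2 held an array far from the others, and chance alone would mark about 1 group in 20. Pdk1 in knockout replicate 1 was at 7.89, below the other knockout arrays at 7.99 to 8.01. Errfi1 in knockout replicate 4 was at 10.36, below the other knockout arrays at 10.61 to 10.65.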

How the results depend on the processing

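Adm and P4ha2 kept their call under each of 19 alternatives, with changes of 1.18 to 1.42 and 0.64 to 0.77. The change of Hif1a reversed with the mean of its rows (0.26, adjusted p = 0.103) and with its row of largest SD (0.67, adjusted p = 0.00398), where the other row replaces or joins the kept one. The count of members higher in the knockout, 5, was 3 with rows averaged per gene, 3 with no filter on dim genes, 2 at an adjusted p under 0.01, and 2 to 8 on leaving out single arrays, with 0 lower throughout. With the mean of rows Slc2a1 (0.32) and Pdk1 (0.27) lost their calls, and with no filter so did Slc2a1 (0.41) and Pdk1 (0.35), at adjusted p-values of 0.0590 and 0.0767. Vegfa passed with the 60th percentile filter (0.35, adjusted p = 0.0338), array weights (0.37, 0.0360), cyclic loess (0.35, 0.0388), an intensity trend (0.35, 0.00992) and median centring (0.37, 0.0405). On leaving out single arrays, changes ran from 0.28 to 0.42 for Vegfa, 0.39 to 0.55 for Bnip3, 0.34 to 0.49 for Slc2a1, 0.28 to 0.41 for Pdk1, 0.20 to 0.37 for Egln3 and 0.25 to 0.53 for Ddit4, and counts over all genes from 765 to 1238 higher and 654 to 992 lower. At an adjusted p under 0.01 there were 592 higher and 479 lower over all genes. Of the further pathway genes 11 were then higher and 10 lower, so the excess of rises among them rests on the threshold. With the replicate block 5 members were higher and 0 lower, and no member's call changed, nor did that of any kept row on testing every row on its own, a setting added after seeing the data. The median of the 10 genes stayed between 0.28 and 0.46. Of the other named genes 0 reversed, and Vhl passed with the 60th percentile filter, cyclic loess, an intensity trend and without wild type replicate 3.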
